A study of Mus musculus with 6 samples.

Results

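The 9 genes described here encode parts of the B cell receptor (Cd79a, Cd79b), its signalling adaptors (Blnk, Bank1), surface proteins of B cells (Cd22, Cd38) and transcription factors of the B lineage (Pax5, Ebf1, Pou2f2). They were taken by symbol, and all 9 were found, each in 1 row, among the 30733 gene symbols of the tables. RNA sequencing had been done on bone marrow cells that were labelled haematopoietic stem cells (HSCs, the cells from which all blood lineages derive). The cells came from wild-type (WT) mice and were sorted by surface MHC class II. The MHCII-hi group and the MHCII-lo group had 3 libraries each, and the mice of both had received total body irradiation at a dose of 5 Gy. No unirradiated group was analysed here. The age and strain of the mice, the time after irradiation, the sort gates and any pooling of animals are not stated in the labels. Nothing says that the libraries came from separate mice, so the p-values speak only of variation among these 6 libraries, some or all of which may be technical. The HSC label was checked against 10 genes, of which 5 lay below the minimum. Procr averaged 0.497 FPKM in MHCII-hi and 0.253 FPKM in MHCII-lo, and Mecom averaged 0.217 FPKM in MHCII-hi and 0.0667 FPKM in MHCII-lo, while the neutrophil gene S100a9 averaged 6575 FPKM in MHCII-hi and 16859 FPKM in MHCII-lo. The defining HSC markers Procr and Mecom were thus near 0 in both groups.

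B cells sense antigen through a membrane antibody that has almost no signalling tail of its own. The antibody is held on the surface by a dimer of CD79A and CD79B, whose cytoplasmic tyrosine motifs are phosphorylated by Lyn and then bind the kinase Syk. Syk phosphorylates the adaptor BLNK, which brings Btk and Plcg2 together to start calcium and NF-kB signalling. EBF1 and PAX5 are the factors that commit a progenitor to the B lineage and switch on many of these genes. In marrow, haematopoietic stem cells are not known to make the receptor, and plasma cells, the antibody-secreting end of the lineage, shut down PAX5.

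Levels are in FPKM, a count of fragments divided by transcript length and by library total, as deposited by the authors. This scale lets levels of different genes be set side by side. Log2 changes are differences of log2(FPKM + 1), MHCII-hi minus MHCII-lo, which understate the change of low genes. Folds are ratios of mean FPKM. Read totals were not in the files. A depth estimated from the smallest steps of single-exon genes was 2.06e+07 to 3.25e+07 fragments per library. The limma test took the 12110 genes that averaged 1 FPKM or more across the 6 libraries, with Benjamini-Hochberg adjustment over all of them and a threshold of 0.05. In bulk RNA, fewer cells of a type and less RNA per cell cannot be told apart, which holds for every difference below.

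Of the 9 genes, 8 were higher in all 3 MHCII-hi libraries than in any MHCII-lo library, and Cd38 was lower in all 3. Over the 27171 genes listed above 0 in at least 1 library, 39.7% had groups that did not overlap, 21.3% being higher and 18.4% lower. Only 6 of the 9 reached the minimum of 1 FPKM, and of these 5 rose and 1 fell in the limma fit. Over all tested genes 58.6% passed, as 25.5% rose and 33.1% fell, and the median absolute log2 change was 0.23. Cd79a, Blnk and Bank1 averaged under 1 FPKM in MHCII-lo cells and so passed the minimum only through MHCII-hi cells, and Cd38 passed it only through MHCII-lo cells. Cd79b and Pou2f2 were above it in both groups. Pax5, Ebf1 and Cd22 lay below the minimum, Cd22 just below it with a mean of 0.993 FPKM and Bank1 just above it with 1.02 FPKM. With no minimum, all 9 genes were tested with limma, and 7 rose, 1 fell and Pou2f2 did not pass. In that fit 14.6% of the 27171 genes rose and 13.8% fell.

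**Figure D1:**
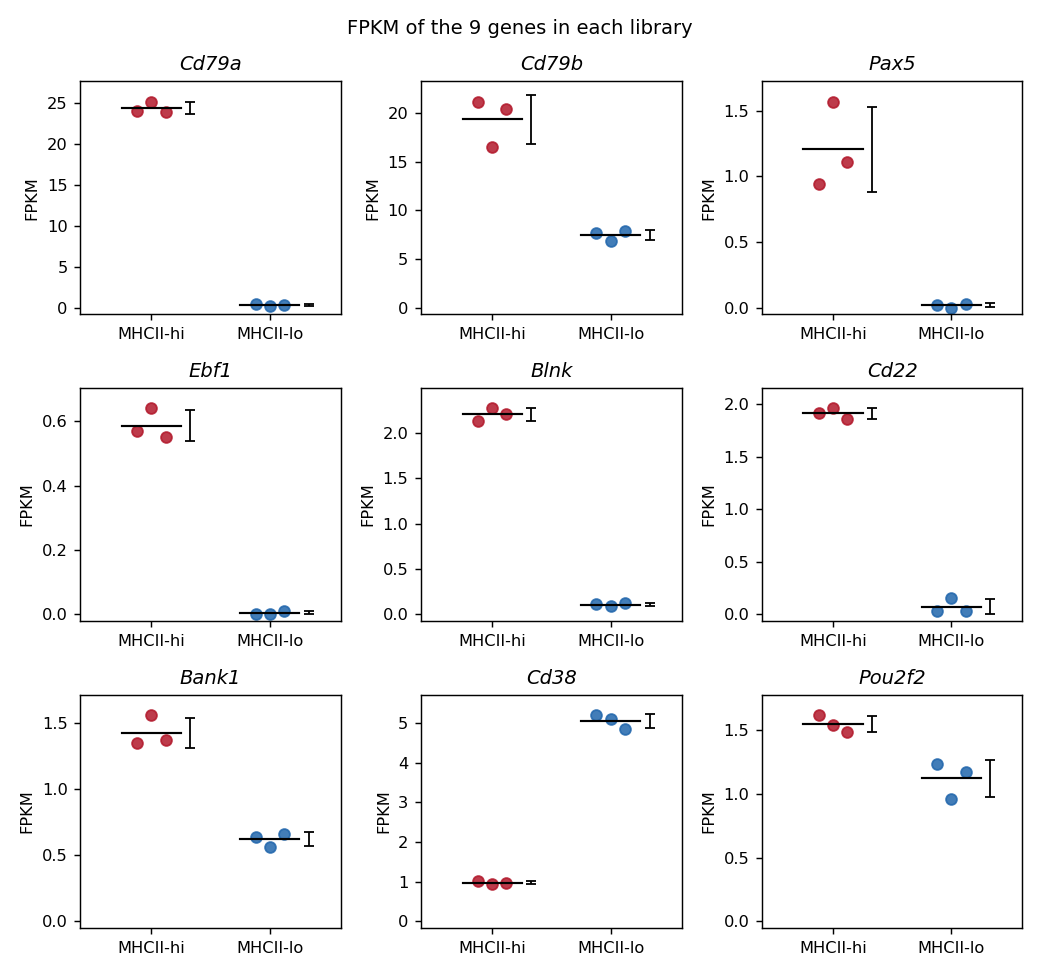
FPKM of the 9 genes in each library, 1 panel per gene with its own axis from 0. Points are libraries, horizontal lines are means and bars are SD (n = 3 per group). Cd38 is the gene that is lower in MHCII-hi, at 0.973 against 5.05 FPKM.

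The receptor's signalling chains behaved unequally. Cd79a (chromosome 7, 24897381 to 24902197, GRCm38) stood at 23.96, 25.1 and 23.9 FPKM in MHCII-hi libraries, against 0.43, 0.14 and 0.27 FPKM in MHCII-lo libraries. The groups were far apart, and no MHCII-lo library came near 1 FPKM. The means were 24.3 ± 0.690 FPKM in MHCII-hi and 0.280 ± 0.145 FPKM in MHCII-lo (SD, n = 3 each), an 86.9-fold difference. The log2 change was 4.31 (SE 0.08, limma adjusted p = 6.48e-08). At the estimated depth 1 fragment of Cd79a was worth between 0.0211 and 0.0333 FPKM, so the MHCII-lo level rests on far fewer fragments than the MHCII-hi level and the fold is imprecise.

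Cd79b (chromosome 11, 106311341 to 106314762), the partner chain, stood at 21.2, 16.5 and 20.4 FPKM in MHCII-hi libraries, against 7.65, 6.85 and 7.92 FPKM in MHCII-lo libraries. It was thus clearly present in both groups, and MHCII-hi replicate 2 was the lowest of its group. The means were 19.4 ± 2.50 FPKM in MHCII-hi and 7.47 ± 0.556 FPKM in MHCII-lo, a 2.59-fold difference. The log2 change was 1.26 (SE 0.10, limma adjusted p = 5.50e-05), and it was 1.37 without MHCII-hi replicate 2.

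The balance of the chains was taken within each library, where it does not depend on how the library was scaled. The ratio of Cd79a to Cd79b FPKM was 1.13, 1.52 and 1.17 in the MHCII-hi libraries, against 0.0562, 0.0204 and 0.0341 in the MHCII-lo libraries. The chains were therefore near parity in MHCII-hi cells, while Cd79b exceeded Cd79a in every MHCII-lo library. On the log2 scale the ratio averaged 0.34 ± 0.23 in MHCII-hi libraries and -4.88 ± 0.73 in MHCII-lo libraries (SD, n = 3 each), a difference of 5.22. Its two-sided exact permutation p was 0.1, the smallest that 3 libraries against 3 allow, and 0.15 after Benjamini-Hochberg adjustment over the 3 ratios computed. In FPKM, MHCII-hi exceeded MHCII-lo by 24.1 for Cd79a and by 11.9 for Cd79b.

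**Figure D2:**
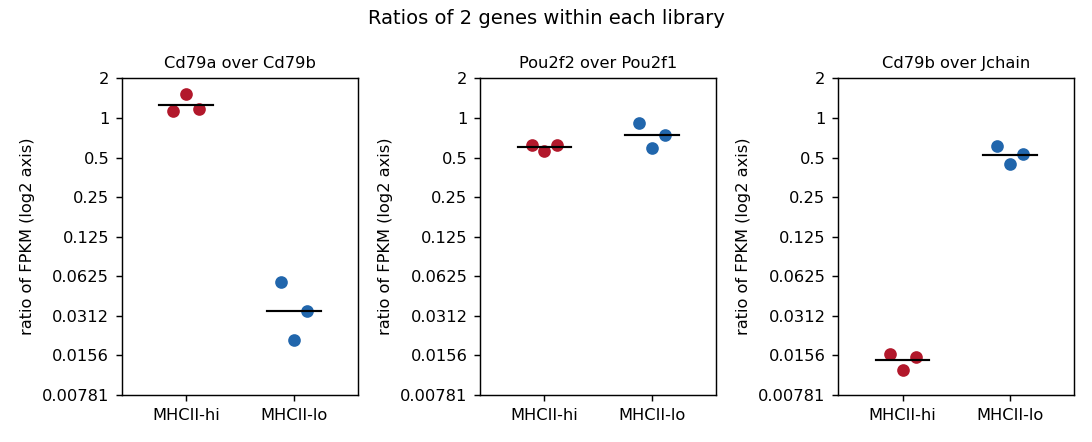
Ratio of the FPKM of 2 genes within each library, on a log2 axis shared by the 3 panels. Points are libraries and lines are geometric means (n = 3 per group). The Cd79a to Cd79b ratio lies at 1.13 to 1.52 in MHCII-hi and at 0.0204 to 0.0562 in MHCII-lo, whereas the ranges of Pou2f2 to Pou2f1 overlap.

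Both signalling adaptors rose, and by different amounts. Blnk (chromosome 19, 40928927 to 40994535), the scaffold between Syk and Plcg2, stood at 2.13, 2.27 and 2.21 FPKM in MHCII-hi libraries, against 0.11, 0.09 and 0.12 FPKM in MHCII-lo libraries. Its libraries lay close together within each group, and the fold between the means was 20.7. The log2 change was 1.53 (SE 0.08, limma adjusted p = 7.89e-06). Bank1 (chromosome 3, 136053363 to 136326066), a scaffold that links the receptor to calcium release, stood at 1.35, 1.56 and 1.37 FPKM in MHCII-hi libraries, against 0.64, 0.56 and 0.66 FPKM in MHCII-lo libraries. It was listed well above 0 in every library, and the groups were separate but near each other. The fold between its means was 2.30, and the log2 scale gave 0.58 (SE 0.08, limma adjusted p = 0.00101).

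The surface proteins went opposite ways. Cd22 (chromosome 7, 30865402 to 30880342), a sialic acid binding receptor that dampens B cell receptor signalling, stood at 1.92, 1.96 and 1.86 FPKM in MHCII-hi libraries, against 0.03, 0.16 and 0.03 FPKM in MHCII-lo libraries. Every MHCII-hi library was above every MHCII-lo library. MHCII-lo replicate 2, at 0.16 FPKM, was the highest of its group, and 1 fragment was worth 0.0061 to 0.0096 FPKM. The log2 difference was 1.44, with a two-sided exact permutation p of 0.1 and, with no expression minimum, a limma adjusted p of 7.06e-05.

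Cd38 (chromosome 5, 43868553 to 43912375), an enzyme on the cell surface that consumes NAD and is found on B cells but also on many other blood cells, was the exception. It stood at 1.02, 0.93 and 0.97 FPKM in MHCII-hi libraries, against 5.20, 5.10 and 4.86 FPKM in MHCII-lo libraries. Within each group the libraries were close, and every MHCII-hi library was below every MHCII-lo library. The means were 0.973 ± 0.0451 FPKM in MHCII-hi and 5.05 ± 0.175 FPKM in MHCII-lo, which is 5.19-fold lower in MHCII-hi. The limma log2 change was -1.62 (SE 0.06, adjusted p = 1.17e-06). The fall held when libraries were scaled to their summed FPKM without immunoglobulin genes, at a log2 change of -1.50. An antisense gene, Gm16015, overlaps the end of Cd38 and had 0.12, 0 and 0.68 FPKM in MHCII-hi, against 0.41, 0.70 and 0.95 FPKM in MHCII-lo. The strand setting of the counting is not stated, so reads of Cd38 and Gm16015 there cannot be told apart.

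The factors that establish B cell identity were low in both groups and nearly absent from MHCII-lo cells. Pax5 (chromosome 4, 44524757 to 44710487), which holds B cells to their lineage, stood at 0.94, 1.57 and 1.11 FPKM in MHCII-hi libraries, against 0.02, 0 and 0.03 FPKM in MHCII-lo libraries. Its relative spread within MHCII-hi was the widest of the 9 genes, at a coefficient of variation of 27.0%. Ebf1 (chromosome 11, 44617317 to 45008091), which acts upstream of Pax5, stood at 0.57, 0.64 and 0.55 FPKM in MHCII-hi libraries, against 0, 0 and 0.01 FPKM in MHCII-lo libraries. Both factors were thus detected in every MHCII-hi library, while 1 MHCII-lo library for Pax5 and 2 for Ebf1 were listed at 0. No fold is given for either, because 2 decimals do not resolve the MHCII-lo level. The log2 differences were 1.11 for Pax5 and 0.66 for Ebf1, each with a two-sided exact permutation p of 0.1. With no expression minimum, the limma adjusted p was 7.88e-04 for Pax5 and 1.08e-04 for Ebf1.

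Pou2f2 (chromosome 7, 25087344 to 25179726), which encodes the octamer-binding factor OCT2, differed least. It stood at 1.62, 1.54 and 1.49 FPKM in MHCII-hi libraries, against 1.24, 0.96 and 1.17 FPKM in MHCII-lo libraries. The groups did not overlap, but the gap between them was no wider than the range within MHCII-lo. The fold between the means was 1.38, and the log2 scale gave 0.27 (SE 0.08, limma adjusted p = 0.0280). This call was lost in 8 of 14 alternative fits, among them 5 of the 6 that left out 1 library (adjusted p 0.0345 to 0.0843 over the 6). The other octamer factor of these cells, Pou2f1 or OCT1, is made in most cell types and stood at 2.57 ± 0.170 FPKM in MHCII-hi and 1.51 ± 0.134 FPKM in MHCII-lo (log2 change 0.51, SE 0.07, limma adjusted p = 0.00104). The within-library ratio of Pou2f2 to Pou2f1 was 0.628, 0.562 and 0.621 in MHCII-hi, against 0.912, 0.596 and 0.745 in MHCII-lo. These ranges overlapped, with a two-sided exact permutation p of 0.3 (adjusted over the 3 ratios, 0.3). Their shared coactivator Pou2af1, which is largely B-lineage specific, stood at 15.5 ± 1.004 FPKM in MHCII-hi and 0.297 ± 0.0651 FPKM in MHCII-lo (log2 change 3.67, SE 0.07, limma adjusted p = 4.71e-08). The gene D930028M14Rik overlaps Pou2f2 on the opposite strand, at 0.48, 0.21 and 0.30 FPKM in MHCII-hi and 0.28, 0.12 and 0.59 FPKM in MHCII-lo. Pou2f2 lies on the same chromosome as Cd79a, with 185147 bases between them.

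The order of the levels differed between the groups. In MHCII-hi cells Cd79a and Cd79b led, followed by Blnk and Cd22, each apart from the next. Pou2f2, Bank1, Pax5 and Cd38 came next, and each overlapped its neighbour in that run. Ebf1 was lowest, at 0.587 ± 0.0473 FPKM. In MHCII-lo cells Cd79b and Cd38 led, at 7.47 and 5.05 FPKM, followed by Pou2f2, Bank1 and Cd79a, all apart. Blnk, Cd22, Pax5 and Ebf1 formed the low end, where each overlapped the next. Cd79a thus ranked 1 of 9 in MHCII-hi and 5 of 9 in MHCII-lo, and Cd38 ranked 8 of 9 in MHCII-hi and 2 of 9 in MHCII-lo. Summed over the 9 genes, the level was 52.1 to 54.7 FPKM in MHCII-hi and 13.9 to 15.3 FPKM in MHCII-lo.

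Promoter sequences are shown because OCT2 and EBF1, both encoded by genes of the set, bind known DNA motifs. RefSeq promoter entries (GRCm38.p6) were found for 8 of the 9 genes, all but Cd79b. The 250 bases before each RefSeq start were searched on both strands for the octamer ATGCAAAT, bound by OCT1 and OCT2, and for the palindromic core of EBF1 sites. In these genes no match of one motif lay over a match of the other. The octamer was present in 1.6% of all 32851 promoters in the table and the EBF1 core in 0.779%. The octamer was found in Blnk and the EBF1 core in Cd22, and neither was found in the windows of the other 6 genes, which says only that these exact letters are not in them. In the lines that follow, capitals mark the match, and the Cd79a stretch, which has none, is the part of its window outside the exons of GENCODE M21. The Blnk match is the octamer read on the opposite strand, and it lies within an exon of Blnk in GENCODE M21 that begins upstream of the RefSeq start. The Cd22 match lies outside the exons of Cd22 but inside its span in GENCODE M21, which also begins upstream of the RefSeq start.
Blnk, chr19:40994333-40994362, minus strand: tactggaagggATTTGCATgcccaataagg
Cd22, chr7:30879058-30879087, minus strand: tcctgcaagaTCCCTGGGGActcacacaga
Cd79a, chr7:24897247-24897380, plus strand: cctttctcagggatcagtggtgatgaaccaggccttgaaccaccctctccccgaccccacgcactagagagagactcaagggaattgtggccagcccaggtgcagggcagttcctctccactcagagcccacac

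None of the tested enzymes and adaptors of the pathway changed by as much on the log2 scale as the receptor chain Cd79a. Of 24 B cell receptor signalling genes 22 were tested, and 12 rose, 3 fell and 7 did not pass, with a median log2 change of 0.15 beside -0.04 over all tested genes. The kinases and the phospholipase that act just below the receptor were abundant in both groups. Syk stood at 29.4 ± 0.565 FPKM in MHCII-hi and 26.5 ± 0.163 FPKM in MHCII-lo (log2 change 0.15, limma adjusted p = 0.00330). Plcg2 stood at 52.6 ± 0.355 FPKM in MHCII-hi and 47.3 ± 2.12 FPKM in MHCII-lo (log2 change 0.15, limma adjusted p = 0.00952). Lyn, at 44.9 ± 0.630 FPKM in MHCII-hi and 55.4 ± 1.28 FPKM in MHCII-lo, fell by 0.30 on the log2 scale (limma adjusted p = 1.13e-04). Btk, at 37.2 ± 0.702 FPKM in MHCII-hi and 35.2 ± 0.872 FPKM in MHCII-lo, did not pass (limma adjusted p = 0.0647). It passed as higher in MHCII-hi under each of the 3 other scalings, with limma adjusted p of 0.0452 by upper quartile, 0.0254 by quantile and 4.60e-04 outside immunoglobulin genes.

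Dapp1 and Fyn were among the genes of that list with the smallest p. Dapp1, an adaptor recruited by phosphoinositides, stood at 27.6 ± 0.146 FPKM in MHCII-hi and 17.2 ± 0.644 FPKM in MHCII-lo. Fyn, a Src-family kinase that T cells also use, stood at 11.2 ± 0.497 FPKM in MHCII-hi and 3.53 ± 0.436 FPKM in MHCII-lo. Scaling to the FPKM outside immunoglobulin genes gave 18 genes of the list that rose and 1 that fell. Grb2 and Hcls1, which fell in the limma fit, had a log2 change above 0 under that scaling.

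Genes known to restrain the receptor were divided. Of 13 tested, 7 rose, 5 fell and 1 did not pass, with a median log2 change of 0.17, and the scaling outside immunoglobulin genes left 7 that rose and 2 that fell. Dok3 and Lilrb4a, among the 5 that fell, had a log2 change above 0 under it. Pirb, an inhibitory receptor of B and myeloid cells, fell to 39.5 ± 0.603 FPKM in MHCII-hi, against 72.1 ± 1.84 FPKM in MHCII-lo. The phosphatase gene Ptpn22 stood at 11.3 ± 0.502 FPKM in MHCII-hi and 6.16 ± 0.235 FPKM in MHCII-lo. Siglecg, a relative of Cd22, stood at 9.67 ± 0.676 FPKM in MHCII-hi and 4.20 ± 0.263 FPKM in MHCII-lo, and both rose (limma adjusted p = 1.62e-05 and 1.87e-05). The fold of Siglecg was 2.30, and it was well above 0 in MHCII-lo cells, where Cd22 was at 0.0733 ± 0.0751 FPKM.

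**Figure D3:**
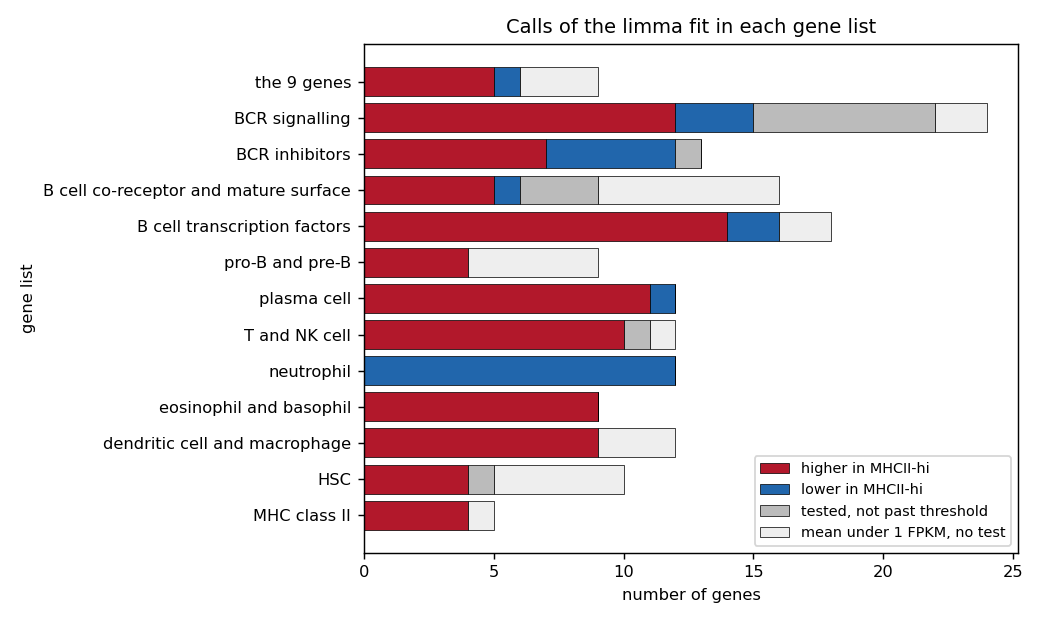
Number of genes in each list that rose, fell, did not pass or lay under the minimum of 1 FPKM in the limma fit of MHCII-hi minus MHCII-lo. The 9 genes are the top bar, with 5 that rose, 1 that fell and 3 under the minimum, and the neutrophil list has 12 that fell.

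Other surface genes of mature B cells were often too low to test, and those that are rare in MHCII-lo cells could reach the minimum only through MHCII-hi cells. Of 16, 7 lay below the minimum, 5 rose, 1 fell and 3 did not pass, and with no minimum 10 rose and 2 fell. Tnfrsf13c, the BAFF receptor, stood at 3.04 ± 0.240 FPKM in MHCII-hi and 0.270 ± 0.0608 FPKM in MHCII-lo. Ms4a1, which encodes CD20, stood at 1.57, 1.36 and 1.15 FPKM in MHCII-hi, against 0.02, 0 and 0 FPKM in MHCII-lo. Fcer2a (CD23) averaged 0.290 FPKM in MHCII-hi and 0.0100 FPKM in MHCII-lo, and Cr2 (CD21) averaged 0.0800 FPKM in MHCII-hi and was listed at 0 in all 3 MHCII-lo libraries. Cd24a, carried by B cell precursors and many other marrow cells, was the gene that fell, at 229 ± 2.02 FPKM in MHCII-hi and 291 ± 2.40 FPKM in MHCII-lo.

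Among B-lineage transcription factors 16 of 18 were tested, and 14 rose and 2 fell, with a median log2 change of 0.57. Those that fell were Spi1, a myeloid and B-lineage factor (log2 change -0.52), and Bcl6, the germinal centre repressor (-0.30). Ikzf3, a zinc finger factor of maturing lymphocytes, stood at 4.09 ± 0.0611 FPKM in MHCII-hi and 0.753 ± 0.0404 FPKM in MHCII-lo. Spib, an ETS factor of B cells and plasmacytoid dendritic cells, stood at 3.80 ± 0.645 FPKM in MHCII-hi and 0.290 ± 0.0520 FPKM in MHCII-lo. Irf8, shared with monocytes and dendritic cells, stood at 28.0 ± 0.537 FPKM in MHCII-hi and 19.2 ± 0.330 FPKM in MHCII-lo. All 3 rose (limma adjusted p at most 1.46e-05). Of 9 genes of pro-B and pre-B cells, 4 were tested and all 4 rose, led by Dntt at 12.1 ± 0.457 FPKM in MHCII-hi and 1.38 ± 0.252 FPKM in MHCII-lo. Of these 9 genes, 2 were listed at 0 in all 3 MHCII-lo libraries.

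**Figure D4:**
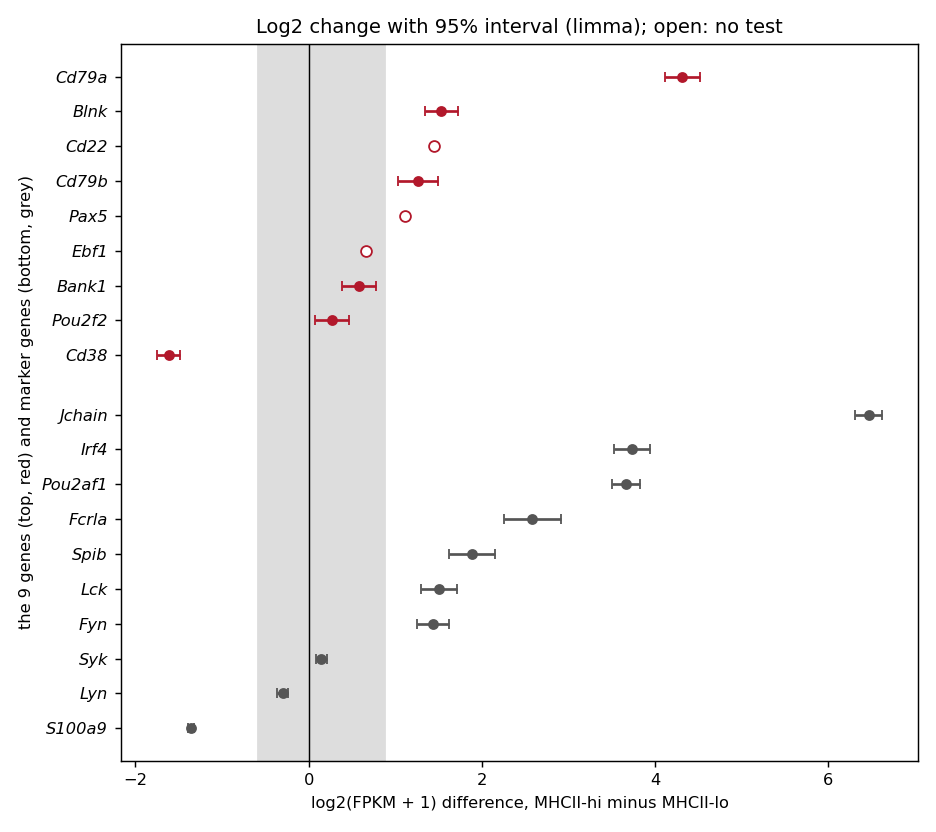
Log2(FPKM + 1) difference, MHCII-hi minus MHCII-lo, of the 9 genes (red, top) and of marker genes (grey, bottom). Filled points are limma estimates with 95% intervals, open points are differences of genes under the minimum, and the band spans the 5th to 95th percentile of all tested genes, -0.58 to 0.88. Cd79a stands at 4.31 and Cd38 at -1.62.

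Plasma cell genes moved with the set. Of 12 tested, 11 rose and 1 fell, with a median log2 change of 2.31. The gene that fell was Fkbp11, with a log2 change of -0.37. Jchain, which joins secreted IgA and IgM, stood at 1342 ± 13.0 FPKM in MHCII-hi and 14.2 ± 1.45 FPKM in MHCII-lo. The ratio of Cd79b to Jchain within a library was 0.0159, 0.0122 and 0.0153 in MHCII-hi, against 0.608, 0.449 and 0.531 in MHCII-lo. Cd79b was thus smaller relative to Jchain in every MHCII-hi library, with a mean log2 difference of -5.19 (two-sided exact permutation p = 0.1, adjusted over the 3 ratios 0.15). This holds for Cd79b only, which kept 7.47 FPKM in MHCII-lo. The other receptor chain, Cd79a, was 86.9-fold higher in MHCII-hi, and Jchain was 94.2-fold higher. The Cd79a fold is imprecise, since it rests on 0.43, 0.14 and 0.27 FPKM in MHCII-lo, so these folds cannot be compared closely. A ratio of Cd79a to Jchain was not tested. Irf4, which drives plasma cell formation, stood at 19.5 ± 0.311 FPKM in MHCII-hi and 0.550 ± 0.182 FPKM in MHCII-lo, and Slamf7 stood at 6.95 ± 0.277 FPKM in MHCII-hi and 0.297 ± 0.0751 FPKM in MHCII-lo. The heavy chain Ighm, which forms both the membrane receptor and secreted IgM, stood at 282 ± 5.89 FPKM in MHCII-hi and 65.5 ± 3.91 FPKM in MHCII-lo. Immunoglobulin genes held 23.5% ± 0.144 of all FPKM in MHCII-hi libraries, against 0.497% ± 0.0046 in MHCII-lo libraries (SD, n = 3 each).

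Markers of other cell types moved beside the 9 genes. The summed level of 12 plasma cell genes was 1598 to 1606 FPKM in MHCII-hi and 143 to 148 FPKM in MHCII-lo. Jchain, at 1342 FPKM, made up most of the MHCII-hi sum. Xbp1, Edem1 and Txndc5 made up most of the MHCII-lo sum, at 64.7, 37.4 and 23.4 FPKM. In MHCII-hi they stood at 78.4, 41.2 and 45.4 FPKM. In the T and NK list 10 of 11 tested genes rose, with a median log2 change of 1.36. Sums over its 12 genes were 224 to 231 FPKM in MHCII-hi and 166 to 177 FPKM in MHCII-lo. Most of both sums was Nkg7, the tested gene that did not pass, at 148 ± 3.42 FPKM in MHCII-hi and 150 ± 3.99 FPKM in MHCII-lo. The sums therefore understate the rise of the other genes of that list. All 12 neutrophil genes fell, 11 of them when scaled outside immunoglobulin genes, with sums of 18996 to 19292 FPKM in MHCII-hi and 43304 to 43918 FPKM in MHCII-lo. All 9 eosinophil and basophil genes rose, with sums of 7600 to 7763 FPKM in MHCII-hi and 3045 to 3074 FPKM in MHCII-lo. All 9 tested genes of the dendritic cell and macrophage list rose, with sums over its 12 genes of 131 to 142 FPKM in MHCII-hi and 75.03 to 76.1 FPKM in MHCII-lo. Their part in the levels of the 9 genes was not tested.

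The tested genes with patterns most like the receptor chains over the 6 libraries were found by Euclidean distance between mean-centred log2(FPKM + 1) values. Immunoglobulin segments, numbered predicted genes, Rik clones and pseudogenes were left out, which left 10112 candidates. For Cd79a they were H2-Aa (distance 0.44), Cd74 (0.52) and H2-Eb1 (0.61). All 3 are genes of MHC class II presentation, on whose surface protein the cells were sorted, and H2-Aa stood at 63.7 ± 1.80 FPKM in MHCII-hi and 2.19 ± 0.311 FPKM in MHCII-lo. For Cd79b they were Gpr171 (0.20), Gimap1 (0.22) and Cx3cr1 (0.22). With 6 libraries in 2 groups this likeness reflects mainly the size of the difference between the groups.

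Small changes depended on how libraries were scaled. Dividing by the summed FPKM outside immunoglobulin genes moved the median log2 change of all genes by 0.15, and 69.7% of called genes were then higher in MHCII-hi in place of 43.5%. The 6 tested genes among the 9 kept their direction under the 3 scalings tried, and so did every pathway and marker gene given values above as risen or fallen. The changes of Syk and Plcg2 were about the size of that shift.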

How the data were processed

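The labels' protocols describe RNA of sorted cells and a stranded mRNA kit. Per the submitters' processing notes, fastp, HISAT2 and StringTie were used with GRCm38 (mm10); their versions, settings and annotation are not stated. The FPKM values were made by the authors, who deposited 1 table per library scaled to gene length and library total. The headers name no unit, and FPKM was inferred from decimals that do not sum to a fixed total (332289 to 383600). Abundant transcripts lower all other values on this scale.

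Of 30803 rows, 70 that repeated a symbol at a lower mean were dropped. The fit used limma 3.58.1 in R 4.3.3 with an intensity trend, on log2(FPKM + 1), with no covariate, and was tested on simulated data. Members below the minimum and within-library ratios were tested with an exact permutation test. The members and gene lists were chosen with earlier results of these data known, so their directions are not independent evidence. Named were all 9 genes, up to 3 genes of each list described with the smallest p, and genes chosen for their role, not all of which are described. Grb2, Hcls1, Dok3, Lilrb4a, Spi1, Bcl6 and Fkbp11 were named after their values were seen, as were Gm16015 and D930028M14Rik, genes that overlap a member. Coordinates are from GENCODE M21. The depth estimate used single-exon genes of 200 to 1000 bases. Each alternative changed 1 choice: a replicate block, each library left out, the pseudocount, the minimum, scaling and variance moderation. Protein sequences were not used here.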

Additional observations from a re-analysis of the deposited data

How the results depend on the processing

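Cd79a, Cd79b, Blnk, Bank1 and Cd38 kept their direction and passed the limma threshold in all 72 combinations of a gene and an alternative that could be tested. Their log2 changes ranged from 4.23 to 6.08 for Cd79a, 1.196 to 1.42 for Cd79b, 1.43 to 3.48 for Blnk, 0.42 to 1.08 for Bank1 and -2.26 to -1.50 for Cd38, with the values farthest from 0 from a pseudocount of 0.1 except for Cd79b. Pou2f2 did not pass with a replicate block (adjusted p = 0.0579), with no minimum (0.0708) or under quantile normalization (0.316), and the range over its alternatives was 0.00738 to 0.316. Same-numbered libraries deviated from their group means with correlations of -0.09, -0.00 and -0.03. With so few libraries per group, this cannot show whether the replicate numbers pair the libraries. The block left 2856 genes higher and 3782 lower, beside 3084 and 4009 without it. With a minimum of 5 FPKM, 2 of the 9 genes rose and 0 fell, since only Cd79a and Cd79b were tested, and 1792 of all genes rose. Leaving out 1 library gave 4 to 5 of the 9 genes that rose and 1 that fell. Scaling without immunoglobulin genes gave 4901 genes higher and 2131 lower. Leaving out 1 library gave 2760 to 2893 genes higher and 3589 to 3688 lower. Of 360 list counts, 345 stayed within 1.5 times the reported count. The differences of the log2 ratios kept their sign with each library left out: 4.85 to 5.58 for Cd79a over Cd79b, -0.45 to -0.15 for Pou2f2 over Pou2f1 and -5.31 to -5.07 for Cd79b over Jchain. Depth and the 2 printed decimals limit what can be said of Pax5 and Ebf1 in MHCII-lo cells, where values were at most 0.03 FPKM.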
